A study of Mus musculus with 2 samples.

Results

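The genes described here are 10 genes of MHC class I antigen presentation, chosen by name from the 32285 genes of each count matrix: the heavy chains H2-K1, H2-D1, H2-Q7 and H2-T23, the light chain B2m, the peptide transporter genes Tap1 and Tap2, the immunoproteasome subunits Psmb8 and Psmb9 and the transactivator Nlrc5. All 10 were detected in both libraries. The samples were leukocyte preparations from female BALB/c mice (BALB/cAnNCrl in the labels), aged 7 to 8 weeks when bought, that carried liver metastases of 4T1, a BALB/c mammary carcinoma line. The tumor cells were injected into the spleen and the injected pole was then removed, so that each mouse kept a part of the organ. All mice received an infusion, either of the vehicle or of a low or a high dose of CBL0137, a curaxin that binds DNA and loosens it from histones. Hepatic arterial infusion is the route the study describes, and the sources used here give no amount for the low or the high dose.

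Cells were taken 5 days after treatment, and 2 mice were pooled per group. There were 2 droplet libraries, of which GEO labels the first liver and the other spleen (the liver-labelled and the spleen-labelled library below). The 3 groups were mixed in each and told apart by hashtags, antibodies tagged with a short DNA barcode, A0301 marking vehicle, A0305 the low dose and A0310 the high dose. The methods list the barcodes of all 3 hashtags but name only A0301 and "310" for the staining. A group was therefore 1 pooled sample per library, and no difference below has a replicate check, a test or a p-value. Levels are given as CPM (UMIs of a gene per 1000000 UMIs, a UMI being 1 captured transcript) over all cells of a class and group, with exact Poisson 95% intervals, and ratios as log2 with exact conditional 95% intervals. These intervals cover counting error only. A gene is called higher or lower in a comparison when it had at least 50 UMIs over both groups and moved past 1.5-fold.

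The liver-labelled library held 9591 barcodes and 79585807 UMIs, of which 3103 barcodes were assigned to vehicle, 3194 to the low dose and 2138 to the high dose. The spleen-labelled library held 4830 barcodes and 35672251 UMIs, with 822, 1301 and 865 assigned barcodes. Median UMIs per assigned barcode ran from 4497 to 7930 over the 6 groups, and 15 barcodes were shared by the libraries. The tissue labels go against defining genes. Clec4f, a Kupffer cell receptor, had 0 UMIs in assigned cells of the liver-labelled library and 124.5 CPM in the spleen-labelled library, and Alb, the hepatocyte albumin gene, had 0 and 19.4 CPM. Cr2 and Ighd, which mark splenic follicular B cells, were higher in the liver-labelled library (35.5 against 5.41 CPM and 83.1 against 16.6 CPM). The libraries are therefore named by their labels only, and no tissue is inferred from them. The methods describe cells isolated with CD11b beads, whereas T cell-like, B cell-like and, in the spleen-labelled library, endothelial-like and hepatocyte-like cells were present.

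MHC class I molecules carry short peptides from inside the cell to the surface, where CD8 T cells read them and NK cells sense their absence. Peptides are cut by the proteasome, whose catalytic subunits are exchanged for Psmb8 and Psmb9 in immune cells and after interferon exposure, and are pumped into the endoplasmic reticulum by the Tap1 and Tap2 dimer, where they are loaded onto a heavy chain paired with B2m. H2-K1 and H2-D1 are classical heavy chains, which present peptides to T cells. H2-T23 encodes Qa-1, a nonclassical chain that is a ligand of the NKG2A receptor, and H2-Q7 belongs to the Qa-2 group. Nlrc5 is the transactivator that drives many of these genes from a shared promoter module, and interferon, NF-κB and Nlrc5 inputs meet at class I promoters.

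On mm10 (GENCODE M21 positions, matched by Ensembl identifier), 8 of the 10 genes lie on chromosome 17 within the major histocompatibility complex. H2-K1 is at chr17:33996017-34000347 on the minus strand. Psmb9 (chr17:34181987-34187764, minus strand), Tap1 (chr17:34187553-34197225, plus strand), Psmb8 (chr17:34197721-34201454, plus strand) and Tap2 (chr17:34203527-34216321, plus strand) follow one another, and Psmb9 and Tap1 start head to head and overlap at their 5′ ends. Further along the chromosome are H2-D1 (chr17:35262730-35267499, plus strand), H2-Q7 (chr17:35439155-35443773, plus strand) and H2-T23 (chr17:36029773-36032855, minus strand). B2m is at chr2:122147686-122153083 and Nlrc5 at chr8:94434356-94527272, both on the plus strand. BALB/c mice carry the H-2d haplotype while mm10 is a C57BL/6 genome, and heavy chain genes are close copies of one another (H2-Q7 and H2-Q6 nearly identical). The split of UMIs between H2-K1, H2-D1 and H2-Q7 is thus uncertain, and the level of each gene is compared with its own level across cells. The share of H2-K1 in the UMIs of H2-K1 and H2-D1, given below, carries this uncertainty.

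The promoter stretches of 4 members are shown with runs of letters marked, of which the 4 hold only some in common. They were read from RefSeq promoter windows of 300 bases on GRCm38.p6, which held 8 of the 10 members. Capitals mark GGGGATTCCCC (an NF-κB type site) and AGTTTCACTTC (an interferon response type site), each taken as the bases around a fixed core in the H2-K1 window, and GAAANNGAAA (also of the interferon response type), TGACG and ATTGG (which reads CCAAT on the other strand). The marked letters do not overlap one another.
H2-K1, chr17:34000355-34000462, minus strand: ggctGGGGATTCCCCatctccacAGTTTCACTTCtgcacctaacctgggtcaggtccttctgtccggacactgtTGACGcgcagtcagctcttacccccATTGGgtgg
H2-D1, chr17:35262919-35263026, plus strand: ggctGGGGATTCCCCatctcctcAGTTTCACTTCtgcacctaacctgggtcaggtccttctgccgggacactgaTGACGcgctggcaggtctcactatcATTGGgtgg
H2-Q7, chr17:35439036-35439123, plus strand: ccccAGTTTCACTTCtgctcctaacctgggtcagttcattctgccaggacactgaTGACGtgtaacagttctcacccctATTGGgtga
B2m, chr2:122147544-122147642, plus strand: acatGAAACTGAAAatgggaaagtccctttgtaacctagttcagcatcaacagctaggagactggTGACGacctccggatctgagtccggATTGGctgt
The stretch of H2-D1 lies upstream of its RefSeq start but inside the longer GENCODE gene span. Over 32851 windows of this length, searched on both strands, GGGGATTCCCC was found in 10 (0.0304%), of which H2-K1 and H2-D1 are members described here. AGTTTCACTTC was in 17 windows (0.0517%), among them those of H2-K1, H2-D1 and H2-Q7. Both were cut from the H2-K1 window, so the match of H2-K1 was fixed in advance and is no finding. Some genes, H2-K1 among them, have overlapping windows, so a gene can count more than once. GAAANNGAAA was in 3.44% of windows, among them those of B2m and H2-T23. TGACG followed by ATTGG 19 or 20 bases on was in 43 windows (0.131%), and H2-K1, H2-D1, H2-Q7 and B2m were among them. Alone, TGACG was in 20.8% and CCAAT in 37.4% of windows, and the windows of Tap1 and Psmb9 held both without that spacing. The window of Psmb8 held none of these letters. Such matches describe letters and are not binding sites.

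Among vehicle cells of the liver-labelled library, the summed class I transcripts were highest in NK cell-like cells and lowest in granulocyte progenitor-like cells. The UMIs of the 5 chains (H2-K1, H2-D1, H2-Q7, H2-T23 and B2m) summed to 9262 CPM (8813 to 9727) in the 41 NK cell-like cells and 6565 CPM (6473 to 6658) in the 584 T cell-like cells of the liver-labelled library. Macrophage-like cells had 7112 CPM, dendritic cell-like cells 6253 CPM, B cell-like cells 5553 CPM and monocyte-like cells 4441 CPM. The macrophage-like cells had a median depth of 1591.5 UMIs and also held T cell markers at 2806 CPM. Neutrophil-like cells, the most numerous class with 1427 cells, had 2719 CPM, stem and early progenitor-like cells 2496 CPM and granulocyte progenitor-like cells 1165 CPM. Neutrophil markers summed to 326824 CPM in these granulocyte progenitor-like cells and to 364242 CPM in neutrophil-like cells. They summed to 15805 CPM in the granulocyte progenitor-like cells of the spleen-labelled library, and their part in the levels was not tested. In the spleen-labelled library the sum was 8907 CPM in T cell-like, 2774 CPM in granulocyte progenitor-like and 2091 CPM in neutrophil-like cells, and hepatocyte-like cells had 1178 CPM. Their median share of mitochondrial UMIs was 93.0%, so those barcodes held few other transcripts.

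**Figure D1:**
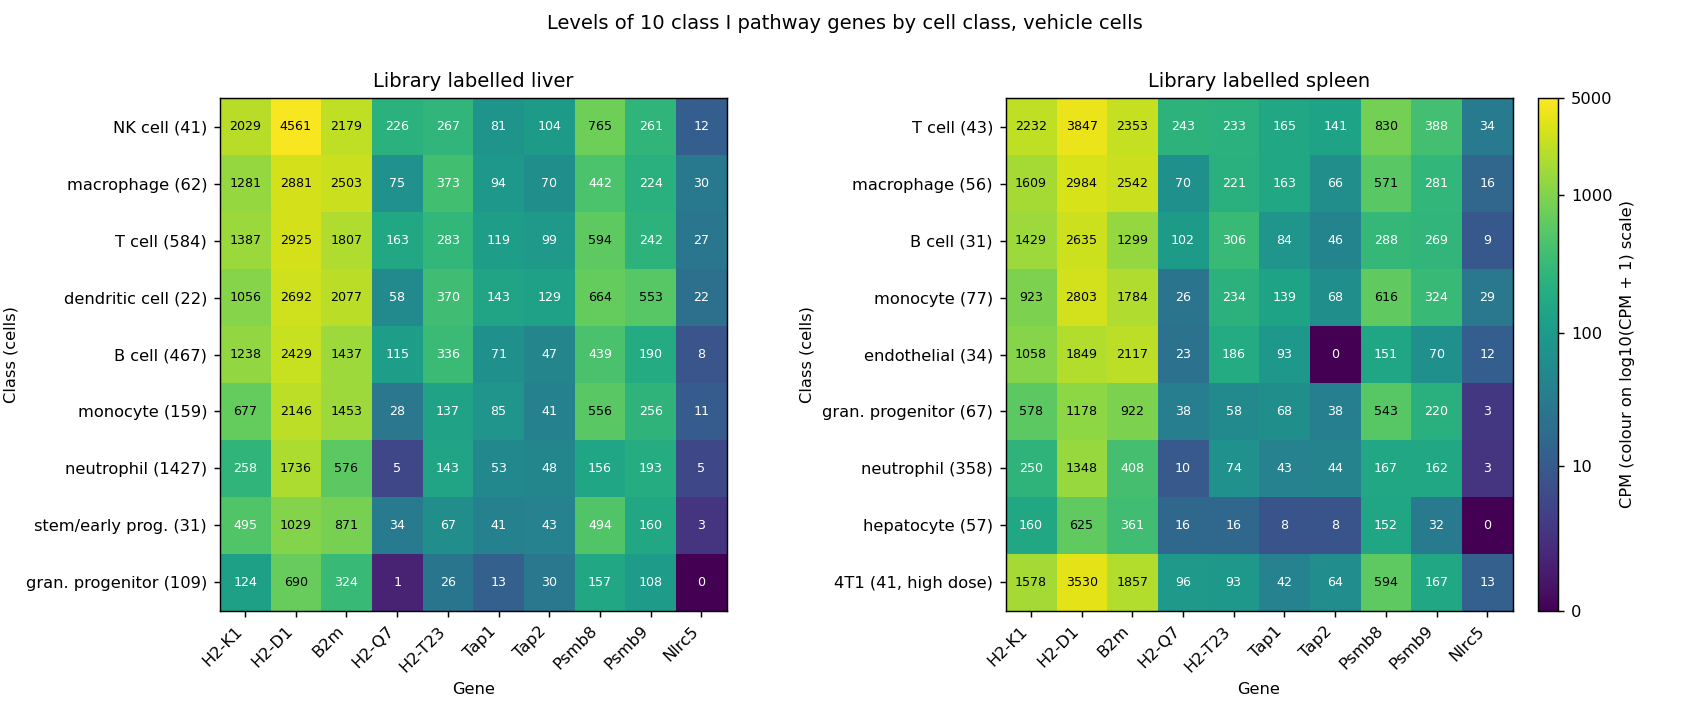
Heat map of the level of each of the 10 genes (columns) in each cell class of the 2 libraries (rows), in vehicle cells, with the high dose row for the 4T1-like cells. Numbers are CPM and colour is log10(CPM + 1). H2-K1 falls from 2029 CPM in NK cell-like to 124 CPM in granulocyte progenitor-like cells of the liver-labelled library, and Nlrc5 is 34.0 CPM or lower in every class shown.

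For H2-K1, vehicle NK cell-like cells of the liver-labelled library had 2029 CPM (1822 to 2253). T cell-like cells followed with 1387 CPM (1345 to 1431), macrophage-like cells with 1281 CPM (1130 to 1448), B cell-like cells with 1238 CPM (1190 to 1287) and dendritic cell-like cells with 1056 CPM (926 to 1200). From T cell-like down to dendritic cell-like cells, each neighbour in that order overlapped the next in its counting interval. Monocyte-like cells had 677 CPM (650 to 705), stem and early progenitor-like cells 495 CPM (455 to 537), neutrophil-like cells 258 CPM (249 to 267) and granulocyte progenitor-like cells 124 CPM (113 to 135), and none of these intervals overlapped. H2-K1 in the spleen-labelled library had 2232 CPM in T cell-like, 1609 in macrophage-like, 1429 in B cell-like, 1058 in endothelial-like, 923 in monocyte-like, 578 in granulocyte progenitor-like, 250.5 in neutrophil-like and 160 in hepatocyte-like cells. The level of H2-K1 in neutrophil-like cells was thus close in the 2 libraries, and that in granulocyte progenitor-like cells was not.

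H2-D1 spanned a narrower range. Its vehicle level in the liver-labelled library was 4561 CPM in NK cell-like, 2925 in T cell-like, 2881 in macrophage-like, 2692 in dendritic cell-like, 2429 in B cell-like and 2146 in monocyte-like cells. Neutrophil-like cells had 1736 CPM, stem and early progenitor-like cells 1029 CPM and granulocyte progenitor-like cells 690 CPM. Neutrophil-like cells stood above the progenitor-like classes for H2-D1 and below the stem and early progenitor-like class for H2-K1. The share of H2-K1 in the UMIs of H2-K1 and H2-D1 gives this as 1 value. It was 12.9% (12.5 to 13.4) in neutrophil-like cells and 15.2% (13.9 to 16.5) in granulocyte progenitor-like cells. Monocyte-like cells had 23.99% and macrophage-like cells 30.8%. T cell-like cells had 32.2% (31.4 to 33.0), stem and early progenitor-like cells 32.5% and B cell-like cells 33.8%. The spleen-labelled library gave 15.7% in neutrophil-like, 24.8% in monocyte-like, 32.9% in granulocyte progenitor-like and 36.7% in T cell-like cells. Assignment of reads to the C57BL/6 genes can set the height of this share, and whether it acts alike in all classes was not tested.

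B2m, the chain every class I molecule needs, followed H2-K1 with a smaller drop in neutrophil-like cells. It reached 2503 CPM in macrophage-like, 2179 in NK cell-like, 2077 in dendritic cell-like and 1807 in T cell-like vehicle cells of the liver-labelled library. Monocyte-like cells had 1453 CPM and B cell-like cells 1437 CPM, which did not differ beyond counting error. Neutrophil-like cells had 576.5 CPM and granulocyte progenitor-like cells 324 CPM.

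Of the nonclassical chains, H2-Q7 stood at 226 CPM (161 to 309) in NK cell-like, 163 CPM in T cell-like and 115 CPM in B cell-like vehicle cells of the liver-labelled library. Monocyte-like cells had 28.0 CPM, neutrophil-like cells 5.04 CPM and granulocyte progenitor-like cells 1.36 CPM (0.442 to 3.18). Values this low cannot be told apart from free RNA in the droplets. H2-T23, the Qa-1 gene, had 372.5 CPM in macrophage-like, 370 in dendritic cell-like, 336 in B cell-like and 283 in T cell-like cells, against 143 CPM in neutrophil-like and 26.4 CPM in granulocyte progenitor-like cells. Monocyte-like cells of the liver-labelled library had 136.5 CPM of H2-T23, with an interval that overlapped that of neutrophil-like cells. H2-T23 in the spleen-labelled library was 74.1 CPM (64.6 to 84.6) in neutrophil-like and 234 CPM (202 to 269) in monocyte-like cells, which did not overlap.

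Tap1 and Tap2 form the transporter that carries peptides into the endoplasmic reticulum. Tap1 had 143 CPM (97.6 to 201) in dendritic cell-like, 119 CPM in T cell-like, 84.8 CPM in monocyte-like, 81.1 CPM in NK cell-like, 71.0 CPM in B cell-like, 52.75 CPM in neutrophil-like and 12.8 CPM in granulocyte progenitor-like vehicle cells of the liver-labelled library. Tap2, its partner, had 129 CPM in dendritic cell-like, 104 CPM in NK cell-like, 99.1 CPM in T cell-like, 48.1 CPM in neutrophil-like, 41.1 CPM in monocyte-like and 29.7 CPM in granulocyte progenitor-like cells. Nlrc5 was low everywhere, with 29.8 CPM in macrophage-like, 27.1 CPM in T cell-like, 11.0 CPM in monocyte-like, 8.33 CPM in B cell-like and 5.38 CPM in neutrophil-like cells. Granulocyte progenitor-like cells had 0 Nlrc5 UMIs of 3673456, which allows up to 0.817 CPM.

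Psmb8 ran from 765 CPM in NK cell-like and 664 in dendritic cell-like to 156.5 in granulocyte progenitor-like and 156 in neutrophil-like vehicle cells of the liver-labelled library. Psmb9 ran from 553 CPM in dendritic cell-like to 108 CPM in granulocyte progenitor-like cells, with 242 CPM in T cell-like and 193 CPM in neutrophil-like cells. Each subunit replaces a constitutive one, Psmb8 replacing Psmb5 and Psmb9 replacing Psmb6. The share of Psmb8 in the UMIs of Psmb8 and Psmb5 was 81.6% in T cell-like, 79.3% in dendritic cell-like, 76.7% in B cell-like, 63.9% in monocyte-like, 62.7% in neutrophil-like, 56.1% in stem and early progenitor-like and 42.5% in granulocyte progenitor-like cells. The share of Psmb9 in the UMIs of Psmb9 and Psmb6 was 76.1% in dendritic cell-like and 73.3% in neutrophil-like cells, above the 67.1% of T cell-like cells. It was 44.8% in granulocyte progenitor-like and 35.0% in stem and early progenitor-like cells. Its share in the spleen-labelled library was 60.7% (57.2 to 64.1) in neutrophil-like and 72.1% (62.8 to 80.2) in T cell-like cells.

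The 4T1-like cells, defined by keratins (Krt8 at 1674 CPM and Krt18 at 1495 CPM over 60 cells) were found in the spleen-labelled library in 6 vehicle, 13 low dose and 41 high dose cells. The class holds few cells in the vehicle group, so its levels there rest on 104362 UMIs. Of the cholangiocyte genes, Sctr, Cftr and Pkhd1 were at 0 UMIs and Bicc1 had 31.3 CPM (79 UMIs), and of the epithelial markers of 4T1, Cdh1 had 22 UMIs, Cldn4 had 4 and Cldn7 had 1. The 5 chains summed to 8835 CPM in vehicle, 5938 in low dose and 7153 in high dose cells, beside 7426, 8062 and 8045 CPM in macrophage-like cells of the same library. H2-K1 had 1667, 1453 and 1578 CPM, and its ratio of high dose to vehicle was -0.08 (-0.30 to 0.15). H2-D1 had 4389, 2702 and 3530 CPM, and B2m had 2606, 1559 and 1857 CPM. H2-D1 and B2m were thus lower in both dose groups than in the 6 vehicle cells, by -0.31 (-0.45 to -0.17) and -0.49 (-0.67 to -0.31) at the high dose, short of 1.5-fold. Of the 9 members with enough UMIs, 1 was called higher and 0 lower at the high dose, where 25.3% of 5102 genes were called higher and 20.5% lower. The gene called was H2-T23, with 57.5, 116 and 92.7 CPM and a ratio of 0.69 (-0.46 to 2.15), which rests on 6 UMIs in vehicle. The median over the 9 members was -0.08, beside 0.01 over all genes. Tap1 (57.5, 76.6 and 42.2 CPM), Tap2 (57.5, 100 and 64.3 CPM) and Psmb8 (460, 647 and 594 CPM) were present in each group. The share of Psmb8 was 60.4% and that of Psmb9 was 36.0% (32.9 to 39.1) in high dose cells, below the values of T cell-like cells for both. At the low dose 1 of 7 members was called higher (H2-T23, 1.02) and 2 lower (H2-D1, -0.70, and B2m, -0.74), against 21.1% and 11.2% of all genes.

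The readout that assigned cells to groups may touch these gene products. The methods give M1/42, which binds mouse MHC class I, as the hashtag antibody clone. Which surface proteins carried the barcodes was not tested. In the spleen-labelled library 1627 barcodes had no call, and the high dose hashtag was the strongest in 1532 of them. The fewest UMIs of its own hashtag in a called cell of that library was 71 for vehicle, 101 for the low dose and 369 for the high dose, so that more UMIs were needed for a high dose call. The share of barcodes without a call was 3.25% (38 of 1169) in neutrophil-like, 22.4% (89 of 398) in T cell-like, 41.3% in macrophage-like, 52.8% (84 of 159) in 4T1-like, 61.5% (397 of 646) in endothelial-like, 75.4% in hepatocyte-like and 95.8% (158 of 165) in erythroid-like cells. Among these classes neutrophil-like cells had the smallest share of barcodes without a call, and erythroid-like cells had the largest. Within a class, the 5 chains summed to 6622 CPM in called and 4308 CPM in uncalled 4T1-like cells and to 7736 and 5042 CPM in endothelial-like cells. T cell-like cells went the other way, with 9120 CPM in called and 11344 CPM in uncalled barcodes. So did B cell-like (5629 and 6163 CPM), basophil-like (4401 and 7778 CPM) and granulocyte progenitor-like cells (2342 and 3064 CPM). Dendritic cell-like, hepatocyte-like, macrophage-like, monocyte-like and neutrophil-like cells had lower sums in uncalled barcodes. Among 4T1-like cells called barcodes had a median of 29584 gene UMIs and uncalled ones 2079, so depth moved with the call as well. When each barcode was given its dominant hashtag instead, 12 vehicle, 13 low dose and 120 high dose 4T1-like cells had class I sums of 7828, 6234 and 6092 CPM. The part of surface class I in the assignment was not tested.

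**Figure D2:**
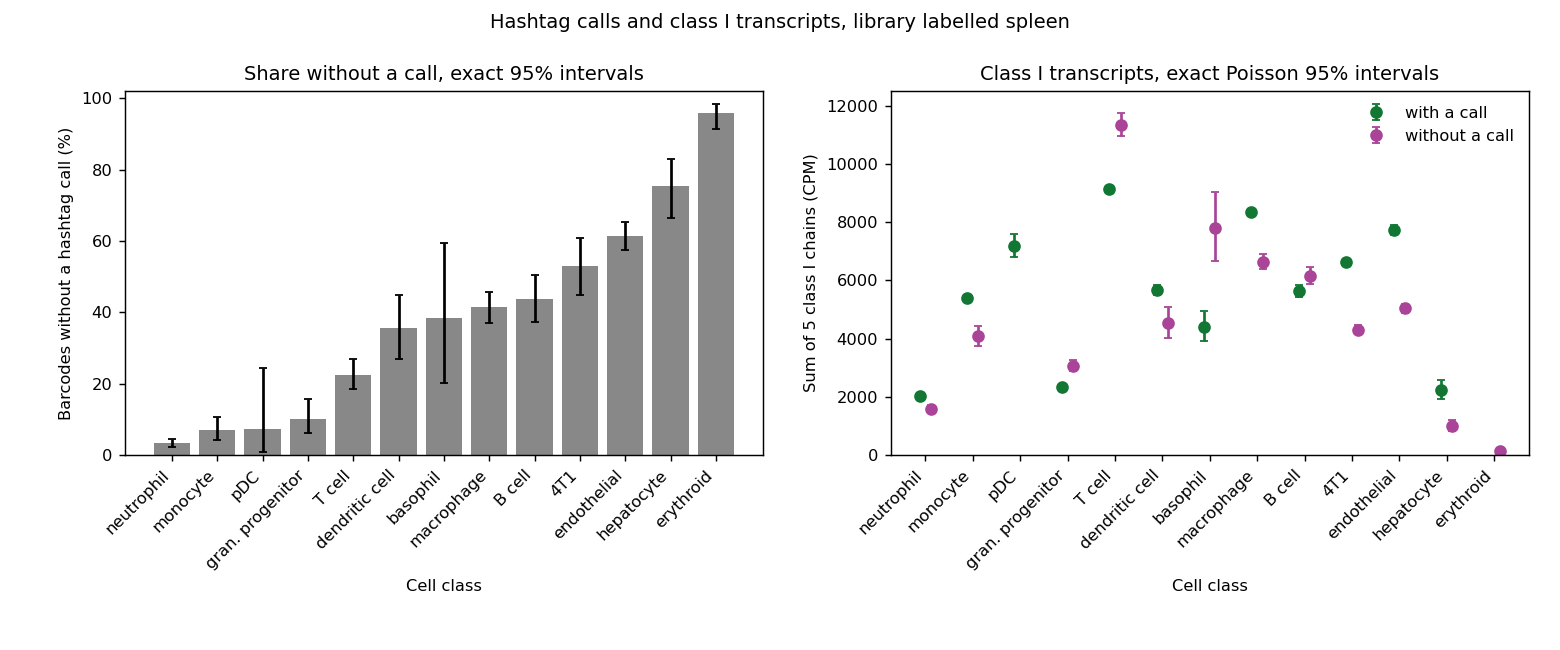
Left, share of barcodes without a hashtag call in each cell class of the spleen-labelled library (percent, bars are exact 95% intervals). Right, level of the 5 class I chains (CPM) in barcodes with and without a call. Neutrophil-like cells lost 3.25% and endothelial-like cells 61.5% of barcodes. Uncalled barcodes were lower for 4T1-like and endothelial-like cells, among others, but higher for T cell-like, B cell-like, basophil-like and granulocyte progenitor-like cells.

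Doses were compared within each class and library, and no member was called at the high dose in T, B or NK cell-like cells of the liver-labelled library. The 5 chains summed to 6565, 6656 and 7177 CPM in vehicle, low dose and high dose T cell-like cells, and the per-cell median was 6.37, 6.48 and 7.10 class I UMIs per 1000. The ratio of the sum at the high dose was 0.13 (0.10 to 0.15), and that of H2-K1 (1387, 1381 and 1516 CPM) was 0.13 (0.07 to 0.18). Of 10 members in T cell-like cells 0 were called in either direction, where 3.26% of genes were called higher and 1.75% lower, and the median over members was 0.09 beside 0.01 over all genes. H2-D1 had 2925, 3125 and 3255 CPM, Tap1 had 119, 98.2 and 108 CPM, Psmb8 had 594, 585 and 620 CPM and Nlrc5 had 27.1, 26.9 and 28.0 CPM. Each member thus moved by less than 1.5-fold in T cell-like cells at the high dose. NK cell-like cells had the largest shift of H2-K1 among lymphoid cells, from 2029 and 1823 CPM to 2860 CPM at the high dose, a ratio of 0.50 (0.32 to 0.67), with 0 of 9 members called (background 8.59% higher and 4.56% lower). Erythroid markers in these cells summed to 92.7, 148.5 and 2336 CPM and T cell markers to 2828, 2408 and 3635 CPM. Their part was not tested. Psmb8 in NK cell-like cells was lower at both doses, at 765, 499 and 568.5 CPM, and was called at the low dose (-0.62), as 1 of 7 members lower and 0 higher against 3.88% and 6.9% of genes.

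B cell-like cells of that library had H2-K1 at 1238, 1003 and 1228 CPM and H2-T23 at 336, 238 and 331 CPM, low dose cells being the lowest for both. At the high dose 0 of 9 members were called, where 2.19% of genes were called higher and 7.17% lower. The clusters behind the class differed by group: cluster 17 (leading genes Pmepa1, Arap2 and Scd1) held 1 vehicle, 149 low dose and 12 high dose cells. Within cluster 1, which held most cells of each group, H2-K1 was 1221, 1015 and 1235 CPM, so low dose cells were lower there too. The spleen-labelled library gave H2-K1 levels of 1429, 1197 and 1607 CPM in its 31, 34 and 66 B cell-like cells, and Psmb8 was called higher at the high dose (0.65, 0.08 to 1.26), 1 of 7 members against 7.87% of genes higher and 11.3% lower. T cell-like cells of that library had H2-K1 at 2232, 2169 and 2164 CPM and class I sums of 8907, 9219 and 9056 CPM. None of 10 members was called there, against 20.8% of genes higher and 8.16% lower. B cell markers summed to 43.7, 38.9 and 2997 CPM in these T cell-like cells, so the high dose group held B cell transcripts. Neutrophil markers summed to 1053, 5737 and 503 CPM and erythroid markers to 34.0, 6322 and 27.6 CPM, both highest at the low dose. The part of these transcripts in the class I values was not tested.

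**Figure D3:**
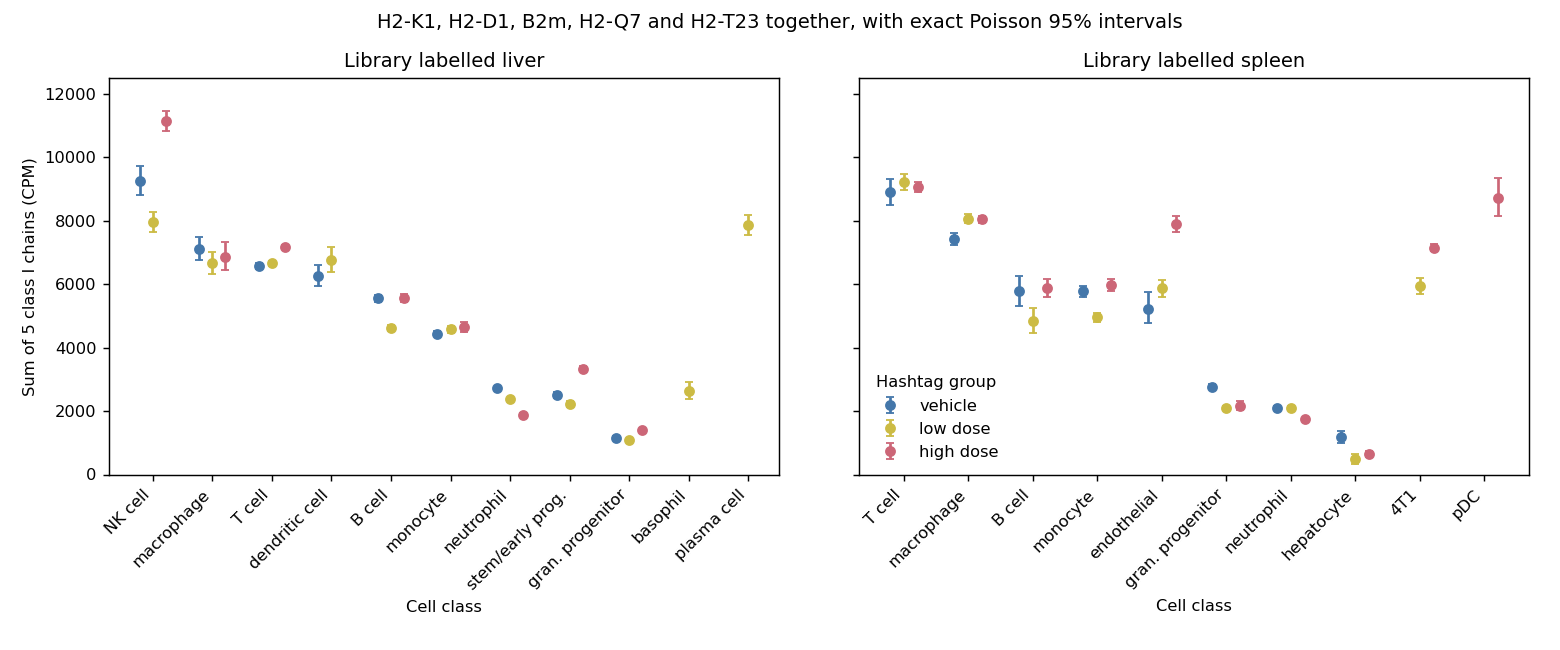
Summed level of H2-K1, H2-D1, H2-Q7, H2-T23 and B2m (CPM) in each cell class by dose group and library, with exact Poisson 95% intervals. T cell-like cells differ little between groups, neutrophil-like cells of the liver-labelled library go from 2719 to 1881 CPM and endothelial-like cells of the spleen-labelled library go from 5233 to 7897 CPM.

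H2-K1 in neutrophil-like cells of the liver-labelled library was called lower at the high dose. Its level was 258 CPM (249 to 267) in vehicle, 173 CPM (165 to 181) in low dose and 118 CPM (108 to 129) in high dose cells, and no interval overlapped another. The ratio was -0.58 at the low dose, just inside 1.5-fold, and -1.13 (-1.27 to -0.98) at the high dose. H2-D1 had 1736, 1495 and 1263 CPM, a smaller drop, so the share of H2-K1 among both chains was 12.9% in vehicle, 10.4% in low dose and 8.6% (7.8 to 9.3) in high dose cells. B2m had 576.5, 591 and 417 CPM, lower at the high dose only. H2-T23 had 143, 116.5 and 80.0 CPM (-0.84, -1.02 to -0.66), H2-Q7 had 5.04, 3.625 and 2.785 CPM (-0.86, -1.93 to 0.08) and Nlrc5 had 5.38, 2.08 and 1.52 CPM (-1.82, -3.32 to -0.62). These 3 genes and H2-K1 were the 4 of 10 members called lower at the high dose, and 0 were called higher. Over all 7423 genes 31.9% were called lower and 2.34% higher, so a share of this size was also found among genes at large. The median over members was -0.54, beside -0.34 over all genes. The count of members lower at the high dose changed with clustering resolution, centring and the mean over cells, as the closing section gives. At the low dose 2 members were called lower (Tap1, -0.665, and Nlrc5, -1.37) and 0 higher, where 6.91% and 1.52% of genes were, with a median of -0.45 beside -0.11. Tap1 had 52.75, 33.3 and 36.2 CPM, Tap2 had 48.1, 44.2 and 37.5 CPM, Psmb8 had 156, 113 and 108 CPM and Psmb9 had 193, 142.5 and 149.6 CPM, of which Tap1 at the low dose was the one past 1.5-fold.

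The neutrophil-like class was made of different clusters in each group. Clusters 2 and 3 shared Il1b, Igfbp6 and Csf3r among their leading genes, and cluster 2 was led by Saa3 and Hist1h2bc. Their median depths were 3306 and 3554 UMIs. Their share of the neutrophil-like cells was 70.8% in vehicle (1011 of 1427), 60.1% at the low dose (773 of 1287) and 6.57% at the high dose (13 of 198). Cluster 4, led by the stefin genes Stfa3 and Stfa2, had a median of 15874 UMIs and a share of 16.6%, 17.6% and 74.2%. H2-K1 differed several-fold between these clusters in vehicle cells alone: 626 CPM in cluster 2 and 511 CPM in cluster 3, against 92.3 CPM in cluster 4, 91.0 CPM in cluster 8 and 97.2 CPM in cluster 13. Within cluster 4 H2-K1 was 92.3, 89.9 and 110 CPM in vehicle, low dose and high dose cells, a ratio of 0.25 (0.03 to 0.46), and 8 members with enough UMIs had ratios of 0.08 to 0.78, of which 1 (Tap1) was called higher and 0 lower. The share of all genes called within the cluster was not computed. Within cluster 8 H2-K1 was 91.0, 107 and 141 CPM, and within cluster 13 it was 97.2, 84.6 and 123 CPM. Within cluster 2 it was 626, 386 and 235 CPM, the last from 10 cells. Those 10 cells had a median of 8555 UMIs, against 3234 in vehicle and 3425 in low dose cells of the cluster. The lower H2-K1 of the whole class at the high dose was therefore not seen within clusters 4, 8 and 13. The shallow clusters 2 and 3 were lower at the low dose. At the high dose cluster 2 was lower in its 10 cells, where depth and dose cannot be told apart. The median depth of the class was 4366, 5701 and 18598 UMIs, and which of composition, depth and dose goes with the class total cannot be told apart.

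**Figure D4:**
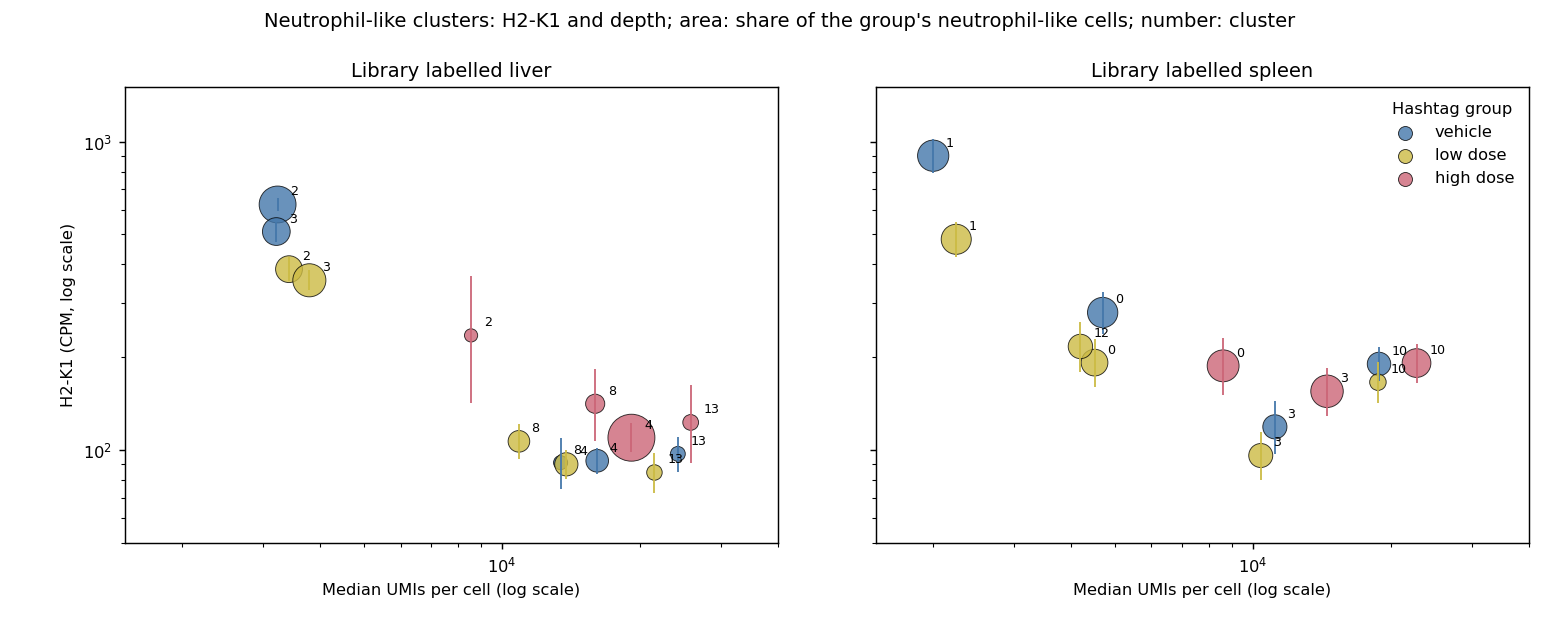
H2-K1 level (CPM, log axis) of each neutrophil-like cluster against its median UMIs per cell (log axis) by dose group, for each library. The area of a point is the share of the group's neutrophil-like cells, and bars are exact Poisson 95% intervals. Shallow clusters have high H2-K1 (626 CPM in cluster 2) and deep ones low (92.3 CPM in cluster 4), and the high dose cells sit mostly in the deep clusters.

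Neutrophil-like cells of the spleen-labelled library had H2-K1 at 250.5 CPM in vehicle, 192 in low dose and 189 in high dose cells, a ratio of -0.41 (-0.58 to -0.24) at the high dose. None of 8 members was called, against 6.24% of genes higher and 6.69% lower, and the median was -0.23 beside 0.02. H2-D1 had 1348, 1398 and 1072 CPM and B2m had 408.5, 422 and 409 CPM. By cluster H2-K1 was 279, 192 and 188 CPM in cluster 0, 119, 96.0 and 155 CPM in cluster 3 and 190, 166 and 191 CPM in cluster 10. Cluster 1, with 116 vehicle and 185 low dose cells, had H2-K1 at 900 and 482 CPM (-0.90, -1.17 to -0.63), and 4 of 8 members (H2-K1, Tap1, Tap2 and Psmb9) were past 1.5-fold lower at the low dose there. The share of all genes past 1.5-fold was not computed within clusters, so this count cannot be set against genes at large. The share of the shallow clusters 0, 1 and 12 was 63.1% in vehicle, 72.8% at the low dose and 37.7% at the high dose, so composition moved with dose here as well.

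Endothelial-like cells, found in the spleen-labelled library in 34, 104 and 108 cells, had higher class I transcripts at the high dose. H2-K1 was 1058 CPM (852 to 1299) in vehicle, 1336 CPM (1210 to 1470) in low dose and 2038 CPM (1914 to 2168) in high dose cells. The high dose interval lies above both others, while vehicle and low dose overlap. The ratio was 0.34 (0.01 to 0.68) at the low dose and 0.95 (0.63 to 1.27) at the high dose. H2-D1 had 1849, 2068 and 2618 CPM and B2m had 2117, 2222 and 2957 CPM, with ratios of 0.50 and 0.48, and the sum of the 5 chains was 5233, 5866 and 7897 CPM. Psmb9 had 69.8, 112 and 268 CPM, the largest ratio among the members with UMIs in vehicle (1.94, 0.78 to 3.41). Psmb8 had 151, 151 and 249 CPM (0.72, -0.10 to 1.67) and Tap1 had 93.0, 73.9 and 154 CPM (0.73, -0.32 to 1.99). Tap2 had 0 UMIs in vehicle and 83.5 and 111.5 CPM at the low and the high dose, from 26 and 55 UMIs. These levels were 2.39-fold and 3.20-fold the 34.9 CPM that 3 counts would give over the vehicle group. Counting error in the dose groups is left out, so these folds are not lower bounds. The low dose UMIs of Tap2 also fell short of the count minimum. Of 8 members 5 were called higher and 0 lower, where 16.6% of genes were called higher and 11.3% lower, and the median was 0.73 beside -0.00 over all genes. The vehicle group held 85989 UMIs and the high dose group 493100, so a gene could meet the count minimum mostly through the high dose group. Tap2 met it through that group alone, and the intervals of Psmb8 and Tap1 include 0. The count of members called is thus a description only. At the low dose 0 of 5 were called, against 18.1% and 7.51%. The share of Psmb9 in its pair was 39.8% at the low dose and 62.0% at the high dose, and that of Psmb8 was 45.2% and 65.8%, so both exchanges moved toward the immune subunit between the doses.

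Transcripts of other cells moved with the endothelial-like values. Macrophage markers summed to 256, 742 and 1306 CPM, with 5, 6 and 7 of 7 detected and with C1qc and Adgre1 at 0 in vehicle. Monocyte markers summed to 69.8, 408 and 546 CPM, T cell markers to 291, 141 and 448 CPM and neutrophil markers to 1919, 3291 and 742 CPM, while erythroid markers were at 30818 CPM in vehicle and at 77.1 and 34.5 CPM at the doses. Median depth was 1382, 2123 and 3486 UMIs and the median mitochondrial share 16.2%, 17.8% and 20.6%. Their part in the class I values was not tested. With the dominant hashtag 29, 107 and 488 endothelial-like cells had H2-K1 at 887, 1463 and 1689 CPM, and with MULTIseqDemux 27, 97 and 419 cells had 909, 1269 and 1511 CPM. The order of the groups was thus kept when most of the uncalled barcodes were added.

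Of the related gene lists in endothelial-like cells, the interferon-stimulated list had 5 of 6 measured genes called higher at the high dose, led by Cxcl9, a chemokine that draws T cells, from 58.2 to 497 CPM (3.10), Igtp (1.83), Irgm1 (1.75) and Iigp1, a GTPase that attacks vacuoles of parasites, from 384 to 1016 CPM (1.40). Among class I regulators 5 of 8 were called higher and 1 lower, Irf1 (1.98), a transcription factor of the interferon response, being among the higher. Psmb10, the third immunoproteasome catalytic subunit, went from 46.5 to 197 CPM (2.08). Of the peptide loading list 2 of 5 were called higher, Canx (0.88) and Hspa5 (0.73), which are chaperones of the endoplasmic reticulum. MHC class II genes, which macrophages also express, were called higher for 4 of 4, Cd74 going from 0 to 860 CPM and H2-Aa from 34.9 to 284 CPM. Beside all these list counts, 16.6% of 1873 genes were called higher and 11.3% lower in that comparison. The vehicle values of these genes can rest on very few UMIs: in that group 46.5 CPM stands for 4 UMIs and 34.9 CPM for 3. Cd74, at 0 in vehicle, met the count minimum through the high dose cells alone, so the size of such ratios is uncertain. As with the members, a list gene could meet the minimum mostly through the larger high dose group. These list counts are thus a description only.

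**Figure D5:**
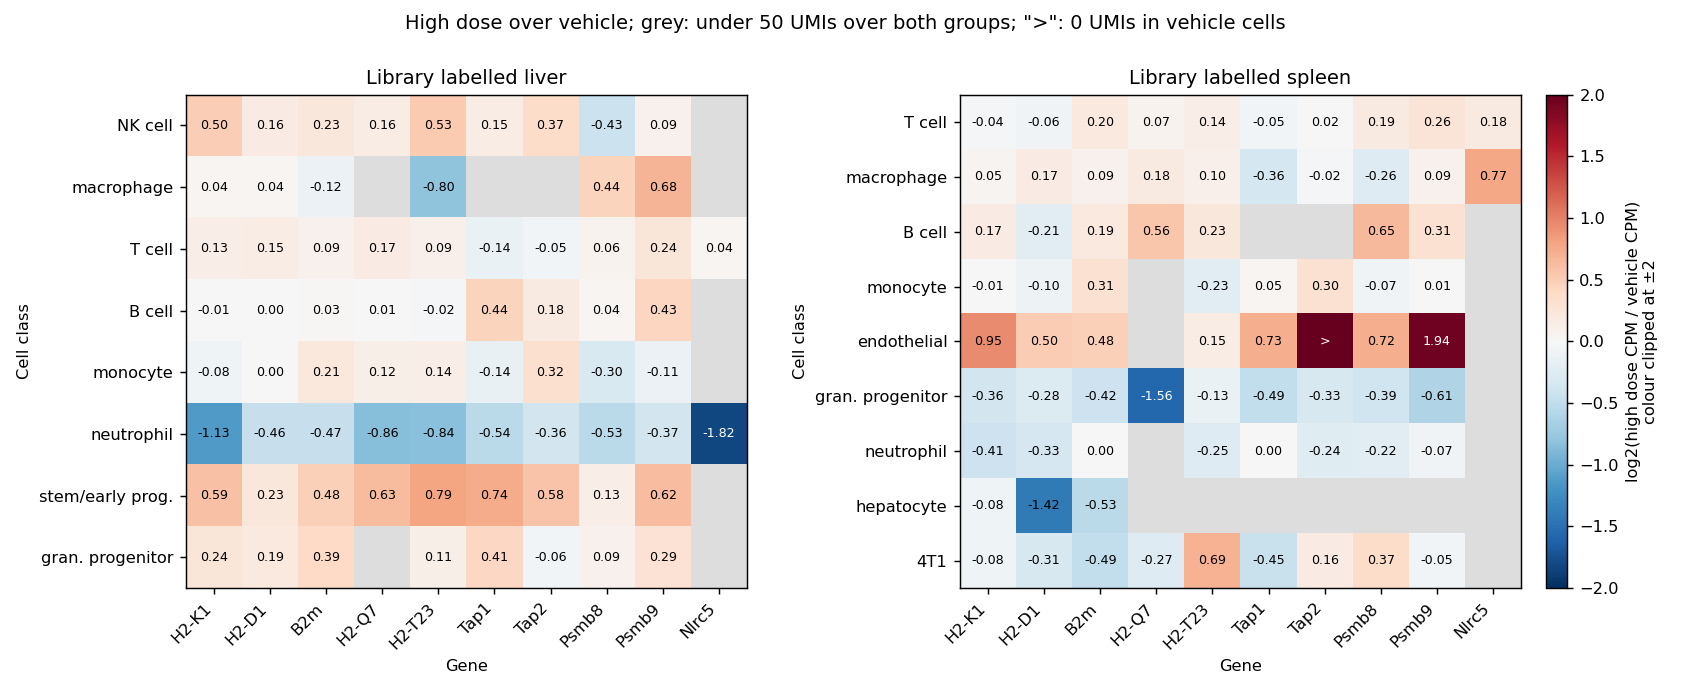
Heat map of the log2 ratio of high dose to vehicle for each gene (columns) and cell class (rows). Colour is clipped at 2 in either direction, grey marks fewer than 50 UMIs over both groups and ">" marks 0 UMIs in vehicle. Neutrophil-like cells of the liver-labelled library are negative, with H2-K1 at -1.13, and endothelial-like and stem and early progenitor-like cells are mostly positive, with Psmb9 at 1.94 and 0.62.

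Stem and early progenitor-like cells of the liver-labelled library (31, 27 and 57 cells, leading genes Car1, Adgrl4, Myb and Cd34) also had members called higher at the high dose. H2-K1 had 495, 464 and 745 CPM (0.59, 0.45 to 0.73), H2-T23 had 67.0, 72.5 and 116 CPM (0.79, 0.41 to 1.18) and H2-Q7 had 33.9, 29.6 and 52.5 CPM (0.63, 0.09 to 1.20). For all 3 chains the vehicle and low dose values lay together and the high dose value above them. Tap1 had 40.9, 41.0 and 68.3 CPM (0.74, 0.26 to 1.25) and Psmb9 had 160, 157.5 and 245.5 CPM (0.62, 0.37 to 0.87). These 5 of 9 members were called higher at the high dose and 0 lower, where 9.48% of genes were called higher and 4.64% lower, and the median was 0.59 beside 0.02. The share of Psmb9 in its pair went from 35.0% to 46.9%. Of the interferon-stimulated list 6 of 8 were called higher, among them Cxcl9 (0 to 56.8 CPM), Iigp1 (1.74 to 46.8 CPM, 4.75), Gbp2 (2.54) and Rtp4 (1.67). Cxcl9 met the count minimum through the high dose cells alone, and Iigp1 almost wholly through them. The count of 6 of 8 is thus a description only, and the size of such ratios is uncertain. Irf1 (1.28) was higher, and Irf8, a factor of monocyte and dendritic cell development, was lower (-1.56). Beside these values, erythroid markers in the class summed to 1058, 3738 and 5412 CPM, neutrophil markers to 1178, 1815 and 3021 CPM and T cell markers to 9.56, 12.4 and 118 CPM, and their part was not tested.

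Members of monocyte-like cells were called lower at the low dose, and 0 were called at the high dose. In the spleen-labelled library H2-T23 was 234 CPM in vehicle, 122 in low dose and 200 in high dose cells, and H2-K1 was 923, 752 and 914 CPM. At the low dose 5 of 8 members were called lower and 0 higher (H2-T23, -0.94, Tap1, -0.60, Tap2, -0.73, Psmb8, -0.62, and Psmb9, -0.61), where 4.4% of genes were called lower and 8.27% higher, with a median of -0.61 beside 0.04. With clusters drawn at resolution 0.4, these calls were lost: the ratios were -0.47 for H2-T23, -0.49 for Tap1, -0.22 for Tap2, -0.35 for Psmb8 and -0.37 for Psmb9. Erythroid markers in the class summed to 23.1 CPM in vehicle and 1609 CPM in low dose cells and T cell markers to 151 and 5.13 CPM, and their part was not tested. At the high dose 0 of 8 were called, against 9.45% higher and 4.9% lower. Monocyte-like cells of the liver-labelled library had Tap1 at 84.8, 50.6 and 76.7 CPM, which was the 1 of 9 members called lower at the low dose (-0.74, where 5.09% of genes were called lower and 4.47% higher), and H2-K1 at 677, 659 and 641 CPM. Both libraries thus had the lowest Tap1 in low dose monocyte-like cells, and at the high dose the liver-labelled library had 0 of 9 called (8.75% of genes higher, 13.3% lower).

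H2-K1 differed by less than 1.5-fold between the groups of macrophage-like cells. Its level was 1281, 1264 and 1314 CPM in the liver-labelled library and 1609, 1672 and 1666 CPM in the spleen-labelled library. The per-cell median in the liver-labelled library was 7.19, 5.59 and 4.91 class I UMIs per 1000. Median depth there was 1591.5, 2846 and 876 UMIs, and macrophage markers summed to 10758, 11746 and 6285 CPM. T cell markers summed to 2806, 2508 and 3300 CPM, neutrophil markers to 1718, 6654.5 and 1807 CPM and erythroid markers to 884, 3645 and 150 CPM. The part of these was not tested. In that library 1 of 6 members was called higher at the high dose (Psmb9, 224, 192 and 357 CPM, 0.68, 0.07 to 1.29) and 1 lower (H2-T23, 373, 173 and 214 CPM, -0.80, -1.46 to -0.17), where 12.8% and 13.8% of genes were called. In the spleen-labelled library 1 of 10 was called higher (Nlrc5, 0.775, -0.13 to 1.80) and 0 lower, against 10.6% and 5.94%. In that library cluster 4 held 89.3%, 77.3% and 66.7% of the class, and cluster 15, led by Marco, Clec4f and Cd5l, held the other 6, 25 and 39 cells, and the part of this was not tested. Of the related lists there, 9 of 17 interferon-stimulated genes were called higher, led by Rsad2 (3.58) and Cxcl10 (3.08), while 6 of 7 MHC class II genes were called lower, H2-Aa from 3208 to 1112 CPM (-1.53).

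Granulocyte progenitor-like cells of the liver-labelled library had 0 of 8 members called at the high dose (6.81% of genes higher, 2.64% lower), and H2-K1 was 124, 118 and 146 CPM. In the spleen-labelled library H2-K1 was 578, 412 and 449 CPM, and 2 of 9 members were called lower and 0 higher (H2-Q7, -1.565, and Psmb9, -0.61), against 15.2% and 4.32% of genes, from 15 high dose cells. Hepatocyte-like cells, mostly mitochondrial UMIs, had H2-D1 at 625, 186 and 234 CPM, a ratio of -1.42 (-1.92 to -0.92), which was the 1 of 3 members called lower, where 61.2% of genes were.

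At the low dose, the members called in the remaining classes were mostly lower and H2-T23 recurred among them. In the liver-labelled library H2-T23 was the 1 of 6 members called lower in macrophage-like cells (373 and 173 CPM, -1.11), against 5.91% of genes lower and 11.5% higher, and the 1 of 8 called lower in granulocyte progenitor-like cells (26.4 and 17.5 CPM, -0.60), against 1.78% lower and 4.43% higher. B cell-like cells of the spleen-labelled library had H2-T23 (-0.63) and Psmb9 (-0.63) called lower and Psmb8 (0.68) higher of 6 members, against 8.49% and 11.0% of genes. With the monocyte-like cells above, H2-T23 was thus called lower at the low dose in 4 classes and higher in 4T1-like cells only. Granulocyte progenitor-like cells of the spleen-labelled library had H2-Q7 (-0.76) and Tap1 (-0.68) lower of 9 members (5.49% of genes lower, 5.75% higher), and hepatocyte-like cells had H2-D1 (-1.75) and B2m (-1.69) lower of 2 (61.3% lower, 14.2% higher). No member was called at the low dose in B cell-like (3.47% of genes higher, 5.39% lower), T cell-like (2.78% and 1.8%), dendritic cell-like (13.3% and 9.85%) or stem and early progenitor-like cells (4.8% and 3.77%) of the liver-labelled library. Nor was any in T cell-like (11.3% and 5.22%), macrophage-like (8.77% and 5.07%) or neutrophil-like cells (5.2% and 8.69%) of the spleen-labelled library. The low and high dose comparisons share the vehicle cells, so their values are not independent.

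Between the libraries, vehicle cells of a class differed in some members. H2-K1 in T cell-like cells was 2232 CPM in the spleen-labelled library against 1387 CPM in the liver-labelled library (0.69), and Psmb9 was higher by 0.68, which made 2 of 10 members called higher and 0 lower where 21.2% and 21.7% of genes were. In the spleen-labelled library 22 of these 43 cells were in cluster 6, led by Gzma, Ccl5 and Gzmb. In the liver-labelled library 302 of 584 were in cluster 0, led by Igfbp4 and Lef1. The part of this difference in makeup was not tested. Monocyte-like cells had 4 of 10 called higher (H2-T23, 0.78, Tap1, 0.71, Tap2, 0.73, and Nlrc5, 1.41) and 0 lower, against 9.45% and 20.0% of genes. In neutrophil-like cells H2-T23 (-0.95, -1.16 to -0.74) and Nlrc5 (-0.98) were called lower and H2-Q7 (0.97, 0.28 to 1.63) higher, 2 and 1 of 10 beside 20.4% and 16.9% of genes. Macrophage-like cells had Tap1 (0.78) higher and H2-T23 (-0.76) lower of 9, against 29.4% and 16.0% of genes, and B cell-like cells had Psmb8 (-0.61) lower of 9, against 25.5% lower and 12.2% higher. Granulocyte progenitor-like cells had 8 of 9 called higher, but 59.0% of all genes were higher too (9.03% lower), and the leading genes differed (Elane, Prtn3 and Fcnb in the liver-labelled library, Ctsg, Mpo and Myb in the spleen-labelled library). Tissue, preparation and library cannot be told apart in these comparisons.

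Over 45 class, group and library units with at least 30 cells, the members' levels moved together, with Pearson's r of log2(CPM + 10) between 0.59 (B2m and Tap2) and 0.95 (H2-K1 and B2m). Among 8854 genes the pattern of H2-K1 was most like those of B2m (r = 0.95), Ifi203 (0.94), H2-T22 (0.94), Ankrd17 (0.93) and Nrip1 (0.93). That of Tap1 was most like B2m (0.88), H2-T23 (0.87), Tapbp (0.87), Gbp7 (0.86) and Trpc4ap (0.85). That of Psmb8 was most like Psme1 (0.92), Eif3m (0.90), Faim (0.90), Eef1a1 (0.90) and Eif3h (0.90), which are in part genes of translation. The units share libraries, depth and cell classes, so these values describe the pattern only.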

How the data were processed

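Cells were processed per the labels by collagenase digestion and a density gradient, while the methods of the study name CD11b magnetic beads. The authors aligned 10x Genomics 3′ libraries to mm10 with Cell Ranger (version 6.0.0 in the submitters' notes, 5.0.0 in the matrix header) and deposited filtered matrices of UMI counts with hashtag antibody counts per barcode. The methods of the study name a later Cell Ranger version than either. Hashtags were called with HTODemux in Seurat 5.3.0 (R 4.3.3) at the 0.99 quantile. The 616 and 215 hashtag doublets and the 540 and 1627 uncalled barcodes of the liver-labelled and the spleen-labelled library were left out of the dose groups. Scrublet (scanpy 1.11.5), which marked 248 and 1 further barcodes, served as an alternative only, and it marked too few in the spleen-labelled library to be of use. Cells were clustered after SCTransform (sctransform 0.4.2) on 30 principal components at resolution 0.8, with the 10 genes and the related gene lists kept out of the variable features, and clusters were named after fixed markers ("T cell-like"), so names rebuilt here may differ from those of the study. Counts were summed per class, hashtag group and library and expressed as CPM of the UMIs of those cells, with exact Poisson 95% intervals, and ratios had exact conditional intervals (Python 3.11.15, scipy 1.17.1). Each group was 1 pooled sample per library, so no test was possible, and intervals cover counting error only. The genes named are the 10 members, at most 4 genes with the largest change past 1.5-fold in each related list, and the 5 genes most alike in pattern to H2-K1, Tap1 and Psmb8. Members and lists were chosen with earlier results of these data known. The ratio and its interval were tested on simulated data. Alternatives in hashtag calling, cell filters, clustering, normalization, count minimum and fold are given in the closing section. Values of some genes of these lists are not reported here.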

Additional observations from a re-analysis of the deposited data

How the results depend on the processing

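Over 2585 alternative values for single members and comparisons, 2347 kept their direction and stayed within counting error, 230 moved and 8 changed sign; the cause was not tested. With the low dose in place of the high dose, the signs changed for Psmb9 (-0.22) in macrophage-like cells of the liver-labelled library, Nlrc5 (-0.39) in macrophage-like cells of the spleen-labelled library, Tap1 (-0.33) and Psmb8 (-0.0026) in endothelial-like cells and H2-K1 (-0.093), H2-Q7 (-0.20) and Psmb9 (-0.023) in stem and early progenitor-like cells. Within clusters, Nlrc5 in neutrophil-like cells of the liver-labelled library changed to 0.69. This setting weights clusters by vehicle cells, so cluster 2 counts most, where 10 high dose cells held 2 Nlrc5 UMIs. The count of members lower in neutrophil-like cells of the liver-labelled library, 4 as reported, was 8 at resolution 0.4, 10 by the mean over cells and 2 when centred on the median ratio, at the low dose or past 2-fold, and within clusters 1 was higher. In neutrophil-like cells of the spleen-labelled library, with 0 lower as reported, 1 was lower with the dominant hashtag, 6 by the mean over cells and 2 with at least 10 UMIs. T cell-like cells of that library had 2 higher by the mean over cells. For 4T1-like cells, with 1 higher and 0 lower as reported, 2 were lower with MULTIseqDemux, 1 with the dominant hashtag, 2 at the low dose and 1 with at least 10 UMIs, and 0 were higher with the dominant hashtag, by the mean over cells and past 2-fold. Between libraries, the 2 neutrophil members lower became 1 with the dominant hashtag, at resolution 1.6 and by the mean over cells, and 0 past 2-fold, where 0 were higher. At resolution 0.4 the low dose values in monocyte-like cells of the spleen-labelled library were -0.47 for H2-T23, -0.49 for Tap1 and -0.22 for Tap2. No value could be had for 4T1-like cells and the library comparison within clusters, for endothelial-like cells under the filter of at least 200 genes and under 10% mitochondrial UMIs, or for stem and early progenitor-like cells with the dominant hashtag, at resolution 0.4, with log-normalization or when clustered with uncalled barcodes. No paired analysis was possible because each group was 1 pooled sample per library and no test was run. Few UMIs limit the values of Nlrc5, and those of H2-Q7 in neutrophil-like and granulocyte progenitor-like cells of the liver-labelled library.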

Other observations

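Outside the class I genes, the interferon-stimulated list differed between classes at the high dose. In neutrophil-like cells of the liver-labelled library 9 of 13 genes with at least 50 UMIs were called lower and 1 higher. Among those lower were Rsad2 (-1.75), Oasl2 (33.6 to 11.1 CPM, -1.59), Gbp3 (-1.51) and Ifit1 (-1.30). The 5 MHC class II genes with at least 50 UMIs were called lower, with H2-Ab1 at -2.77 and Cd74 going from 85.3 to 26.3 CPM (-1.70). Over all genes 31.9% were called lower and 2.34% higher in that comparison. Of 17 class I regulators 5 were called lower and 0 higher, a share close to that of all genes, led by Ifnar1, a chain of the type I interferon receptor (-1.50), Nfyc, Rfxap (-0.97) and Irf2 (-0.77). The same class had different clusters behind each group, as given in the report. In 4T1-like cells 10 of 12 interferon-stimulated genes were called higher, several of them with 0 UMIs in the 6 vehicle cells. The vehicle cells held 104362 UMIs and the 41 high dose cells 2037989. Genes at 0 in vehicle met the count minimum through the high dose cells alone, which made their call higher by itself, so nothing is read from this count. Over all 5102 genes of that comparison 25.3% were called higher and 20.5% lower. In low dose monocyte-like cells of the spleen-labelled library, where members were lower, Cxcl9 went from 1.22 to 110 CPM (6.49) and Cxcl10 was higher (2.43), while Rtp4 (-1.06), Zbp1 (-1.01) and Gbp2 (-0.70) were lower. The UMIs of Cxcl9 came almost wholly from the low dose group. Interferon-stimulated genes thus differed in direction from one another in those cells.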
